A study of Paeonia lactiflora with 8 samples.

Results

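The miR858 and miR828 families of the herbaceous peony Paeonia lactiflora were described across flower, fruit, leaf and root. All entries of the deposited miRNA table that carry either family name were taken, 6 of 304. Where entries had the same mature sequence, the first was kept and values were not summed. This left 5 forms among 270 different sequences. There were 3 forms of miR828 and 2 of miR858. Small RNA was measured in 2 libraries per tissue, described in the labels as biological replicates. Flower, leaf and root came from plants in bloom and fruit from the young fruit period, so organ and stage of fruit cannot be told apart. The labels give no cultivar, plant age or treatment for any group, and nothing in the table marks a tissue independently of its label. The study chose the tissues for their differing content of paeoniflorin, a monoterpene glucoside of peony, and looked for regulators that go with it.

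MicroRNAs of plants guide the cleavage of messenger RNAs that pair with them along most of their length. In Arabidopsis, miR858 acts on MYB transcription factors that switch on flavonol synthesis, and miR828 acts on MYB factors that switch on anthocyanin synthesis and on the non-coding transcript TAS4, from which secondary small RNAs are cut. Both families are known from many flowering plants as a brake on MYB factors of the phenylpropanoid pathway, which makes flower pigments among other compounds. No target was measured in these libraries.

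The 5 mature sequences are shown because their differences define the forms. They are given 5′ to 3′ as in the deposited table, with the seed, bases 2 to 8, in capitals.
ath-miR858b: tTCGTTGTctgttcgaccttg
ppe-miR858_R-2: cTCGTTGTctgttcgacct
gma-miR828a: tCTTGCTCaaatgagtattcca
gma-MIR828b-p5: tCTTGCTCaaatgagtattcc
mdm-miR828a_1ss19TA: tCTTGCTCaaatgagtatacca

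Names are as deposited. The prefix stands for the species of the matching miRBase entry (ath for Arabidopsis, ppe for peach, gma for soybean, mdm for apple), R-2 for 2 bases missing at the right end, and 1ss19TA for a substitution at position 19. The seed TCGTTGT was common to both miR858 forms and CTTGCTC to all 3 miR828 forms. ath-miR858b was 21 nt long and gma-miR828a 22 nt, a length held by 33 of the 270 sequences (12.2%). Counted from the 5′ end of ath-miR858b, ppe-miR858_R-2 carried T1C and lacked the last 2 bases, which made it 19 nt long. Counted from the 5′ end of gma-miR828a, mdm-miR828a_1ss19TA carried T19A, and gma-MIR828b-p5 was the same sequence without its last base. The longest stretch common to ath-miR858b and gma-miR828a was 4 bases.

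The values are the authors' normalized read counts, whose formula is not given in the sources used here. Their sum per library ran from 179334 to 536567, and between 139 and 189 sequences per library were above 0. From the smallest steps between values, 1 read was worth 0.432 in flower 1 to 2.54 in root 2, which implied 73898 reads in root 2 to 724509 in flower 2. Read numbers below are these implied reads. A part of a library below is a part of its sum over the 270 sequences, not of all reads sequenced. The read numbers and the intervals on them cover counting error only.

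ath-miR858b was the abundant form of its family and was highest in flower and lowest in fruit. It was 3138 and 4664 in the flower libraries, 308 and 267 in fruit, 857 and 1597 in leaf, and 1089.7 and 971 in root. Both flower libraries were above all others, and both fruit libraries were below all others. The values rested on 7262 and 6298 reads in flower, 221 and 290 in fruit, 817 and 2152 in leaf, and 766 and 382 in root. Among the sequences above 0 in a library it ranked 11 and 10 in flower, 34 and 43 in fruit, 27 and 18 in leaf, and 22 and 27 in root. In these whole-organ samples, fewer cells with the miRNA and less of it per cell cannot be told apart.

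ath-miR858b rose in flower against fruit. It averaged 3901 ± 1079 in flower and 288 ± 29.0 in fruit (SD, n = 2 each), a 13.5-fold ratio of means, and the lower flower library was 10.2 times the higher fruit library. The log2 difference, flower minus fruit, was 3.73 ± 0.65 on the log2(value + 1) scale (SE, adjusted p = 0.0462, limma, Benjamini-Hochberg over the 216 sequences tested). It had the third lowest p of the 216 and the 20th largest difference. Limma called 5 of the 216, or 2.31%, all higher in flower, and 1 of the 5 miR858 and miR828 forms was among them. Some of the other calls were at 0 outside flower and so passed the filter on low values through the flower libraries alone. The median difference over the 216 was 0.39, so ath-miR858b stood 3.34 above the middle of the table.

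The direction held in 20 of 20 alternative settings, while the call held in 5 of them. Many of these settings cannot move the difference of means, which stayed at 3.73. With flower and fruit libraries that do not overlap, leaving out 1 library cannot turn the sign either. The kept direction is thus a description and no added support. As a part of each library, ath-miR858b was 1.40% (95% exact interval 1.37 to 1.43) and 0.869% (0.848 to 0.891) in flower, against 0.172% (0.150 to 0.196) and 0.144% (0.128 to 0.161) in fruit. ath-miR159a, the most abundant sequence of the table, held 32.2% and 57.7% of the flower libraries and 40.01% and 29.5% of the fruit libraries. Of the remainder, ath-miR858b was 2.06% in each flower library, against 0.287% and 0.204% in fruit. With each library rescaled to the same total the log2 difference was 2.81 ± 0.80 (SE, adjusted p = 0.165, limma). The adjusted p was 0.153 without flower 1, 0.323 without flower 2, 0.324 without fruit 1, 0.188 without fruit 2, 0.133 without leaf 1 and 0.167 without leaf 2 (limma), each in a fit in which a lone library is assumed to vary like the other tissues. It was 0.0245 without root 1 and 0.0253 without root 2 (limma).

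**Figure D1:**
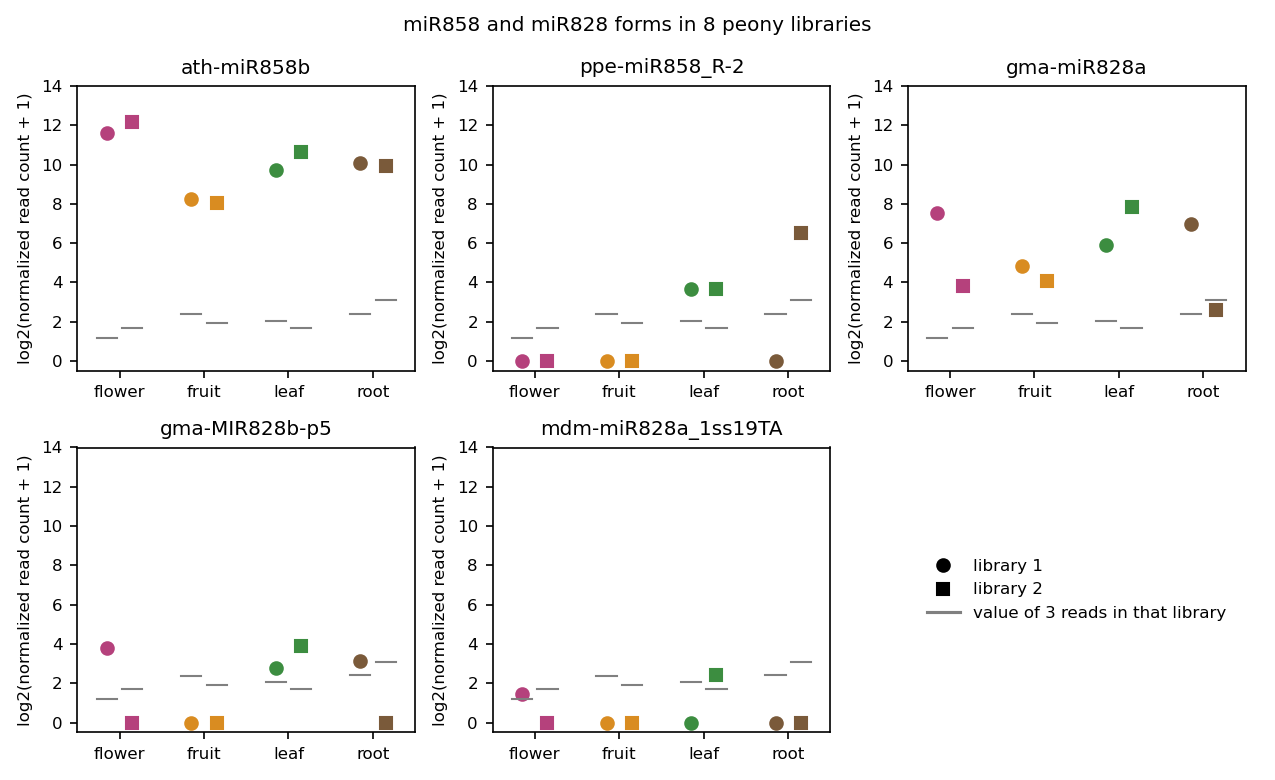
Each panel shows 1 form; the x axis gives the tissue and the y axis log2(normalized read count + 1), with a circle for library 1, a square for library 2 and a grey line at the value of 3 reads in that library. ath-miR858b is far above the grey lines everywhere and highest in flower, while the 3 minor forms are at 0 in at least 4 of the 8 libraries and reach their highest value, 91.5, with ppe-miR858_R-2 in root 2.

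**Figure D2:**
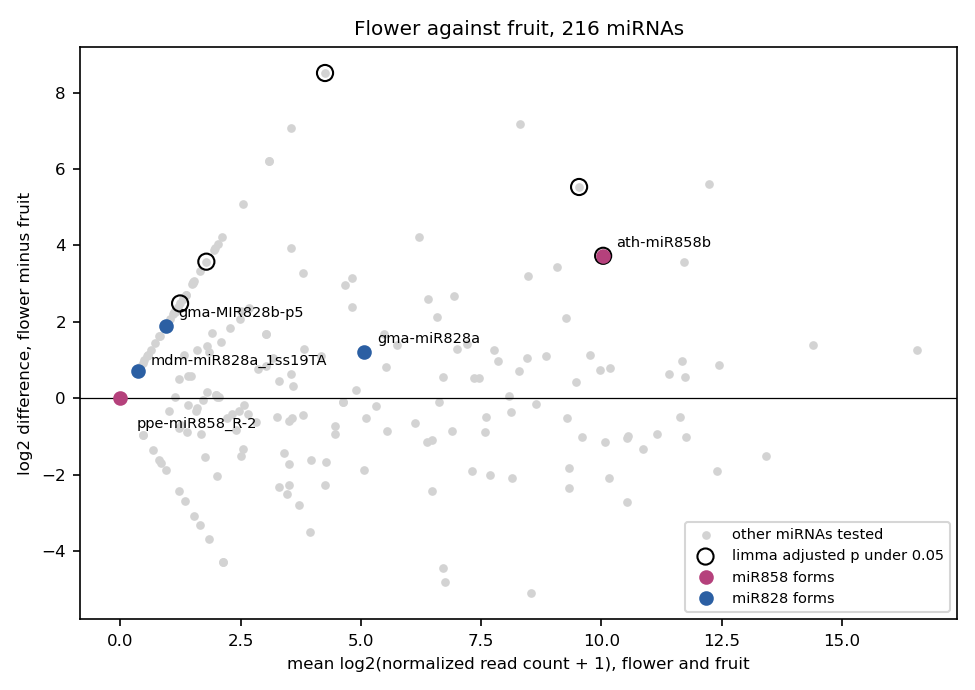
Each point is 1 of the 216 sequences tested; the x axis is its mean log2(normalized read count + 1) over the flower and fruit libraries and the y axis its log2 difference, flower minus fruit. Of the coloured miR858 and miR828 forms, ath-miR858b at 3.73 is ringed as called and the other 4 are not.

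**Figure D3:**
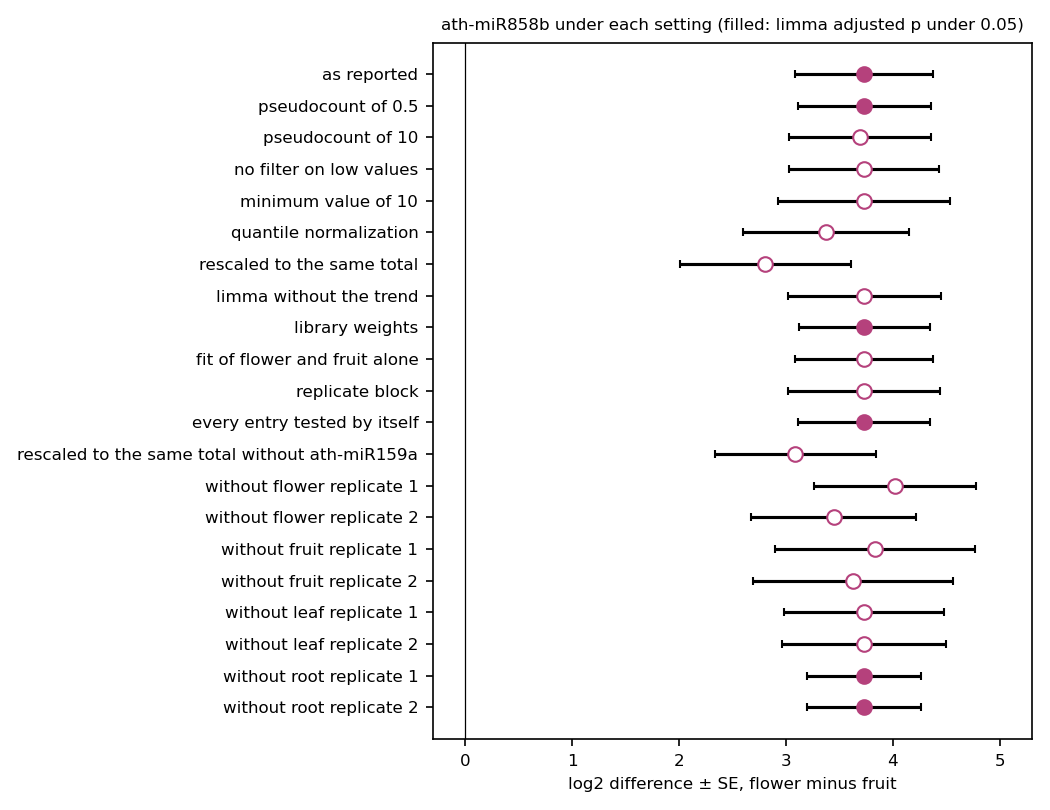
The y axis gives each processing setting and the x axis the log2 difference, flower minus fruit, of ath-miR858b with its SE as bars; a filled point marks limma adjusted p under 0.05. All points lie between 2.81 and 4.02, and 5 of the 20 alternatives are filled.

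Between the other tissues ath-miR858b had values on the same ladder, with no call. It averaged 1227 ± 523 in leaf and 1030.2 ± 84.1 in root (SD, n = 2 each). The flower mean was 3.18 times the leaf mean and the log2 difference 1.71 ± 0.65 (SE, adjusted p = 0.199, limma), and its libraries did not overlap those of leaf. Against root the flower mean was 3.79 times as high and the log2 difference 1.89 ± 0.65 (SE, adjusted p = 0.183, limma), again without overlap. The log2 difference, fruit minus leaf, was -2.02 ± 0.65 (adjusted p = 0.131, limma), and fruit minus root it was -1.84 ± 0.65 (adjusted p = 0.230, limma), with both fruit libraries below in each case. Leaf and root overlapped and differed by 0.19 ± 0.65 (SE, adjusted p = 0.933, limma). In order of mean level the tissues ran flower, leaf, root, fruit. Of the neighbours in that order, leaf and root did not differ beyond their spread, and flower and leaf, like fruit and root, were apart in all libraries without a call.

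Replicates of ath-miR858b were close. Its library pairs differed 1.49-fold in flower, 1.15-fold in fruit, 1.86-fold in leaf and 1.12-fold in root. Over tested sequences with a mean of at least 10 in the tissue and a value in both libraries, the median fold between replicates was 2.61 in flower (109 sequences), 1.69 in fruit (97), 1.501 in leaf (118) and 3.10 in root (98). The pair of ath-miR858b was closer than that median in flower, fruit and root and wider in leaf.

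ppe-miR858_R-2, the shortened miR858 form, had another distribution. It was 0 and 0 in flower, 0 and 0 in fruit, 11.5 and 11.9 in leaf, and 0 and 91.5 in root. It was thus above 0 in both leaf libraries and in 1 of 2 root libraries. Those values stood for 11 and 16 reads in leaf and 36 reads in root 2. Of the miR858 reads it made up 1.33% (95% exact interval 0.665 to 2.36) in leaf 1, 0.738% (0.422 to 1.20) in leaf 2 and 8.61% (6.10 to 11.7) in root 2. In flower it was 0 of 7262 and 0 of 6298 miR858 reads, which allows a share of up to 0.0413% and 0.0476%, below the shares in leaf. In fruit, with 0 of 221 and 0 of 290 reads, a share of up to 1.36% in fruit 1 and 1.03% in fruit 2 is allowed. These limits for 0 reads are 3 divided by the reads of the family, a 1-sided approximation. The 2-sided 95% exact intervals reach higher, to 1.66% in fruit 1 and 1.26% in fruit 2. The share of leaf 2 was thus not detectable in either fruit library. That of leaf 1 was not detectable in fruit 1 and lies above the limit in fruit 2, but its interval reaches below that limit. In root 1 it was 0 of 766 reads, which allows up to 0.392%. Root 2 was also the library in which sequences of 18 and 19 nt held most of the total, 16.0% against 1.46% in root 1 and between 0.547% and 1.93% in the other 6, and the part of this in the value of ppe-miR858_R-2 was not tested. Limma called this form in none of the 6 pairs of tissues. Its unadjusted p was lowest between flower and leaf and between fruit and leaf, at 0.108 for each in limma (adjusted p = 0.349 and 0.359).

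gma-miR828a was present in every library, at a far lower level than ath-miR858b and with far wider spread between replicates in flower, leaf and root. It was 183 and 13.3 in flower, 27.2 and 16.1 in fruit, 58.7 and 225 in leaf, and 127 and 5.08 in root. In flower and in root library 1 was the high one, and in leaf library 2. The values stood for 424 and 18 reads in flower, 19.5 and 17.5 in fruit, 56 and 303 in leaf, and 89 and 2 in root, with 0.5 of a read where the deposited values give it, as when a read is split between 2 entries. The root 2 value lay under that of 3 reads, 7.62. Replicates differed 13.7-fold in flower, 1.69-fold in fruit, 3.83-fold in leaf and 24.9-fold in root. In flower this was more than in 95.4% of the 109 sequences compared, in fruit more than in 48.5% of 97, in leaf more than in 89.0% of 118 and in root more than in 90.8% of 98.

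No tissue difference of gma-miR828a passed the test. It averaged 98.3 ± 120.1 in flower and 21.7 ± 7.83 in fruit, and 142 ± 117 in leaf and 65.8 ± 85.9 in root (SD, n = 2 each). The log2 difference, flower minus fruit, was 1.22 ± 1.87 (SE, adjusted p = 0.809, limma), and without flower 1 it was -0.62. The widest gap was between fruit and leaf, whose libraries did not overlap, at -2.40 ± 1.87 for fruit minus leaf (SE, adjusted p = 0.514, limma). For the other 4 pairs the libraries overlapped, with adjusted p between 0.573 and 1 (limma). No order of the 4 tissues stood out from the spread of this miRNA.

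**Figure D4:**
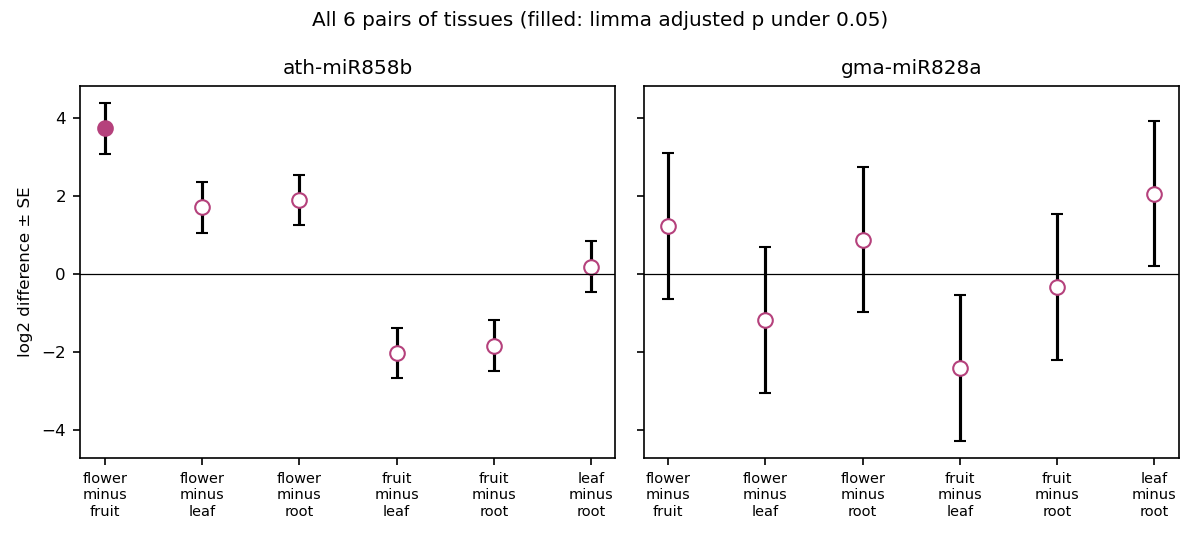
The x axis gives the 6 pairs of tissues and the y axis the log2 difference with its SE as bars, for ath-miR858b on the left and gma-miR828a on the right; a filled point marks limma adjusted p under 0.05. ath-miR858b is filled at 3.73 for flower minus fruit, and the SE bars of gma-miR828a, at 1.87, are longer than those of ath-miR858b, at 0.65.

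The minor miR828 forms were above 0 in libraries in which gma-miR828a had the most reads. gma-MIR828b-p5, which lacks the last base, was 13.0 and 0 in flower, 0 and 0 in fruit, 5.77 and 13.7 in leaf, and 7.82 and 0 in root. It was above 0 in the 4 libraries in which gma-miR828a had 56 reads or more and 0 in the others. Of the miR828 reads it was 6.55% (95% exact interval 4.46 to 9.22) in flower 1, 8.94% (2.72 to 18.1) in leaf 1, 5.65% (3.29 to 8.56) in leaf 2 and 5.82% (1.75 to 11.98) in root 1, with reads rounded down to whole numbers for the intervals. These 4 intervals overlap. In flower 2, fruit 1 and fruit 2 the 18, 19.5 and 17.5 miR828 reads allow a share of up to 16.7%, 15.4% and 17.1%. These limits are from the same 1-sided approximation, and the 2-sided exact intervals reach 18.5%, 17.6% and 19.5%. A share as in those 4 libraries was thus not detectable there. Root 2 had 2 miR828 reads and allows no statement.

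mdm-miR828a_1ss19TA, the form with T19A, was 1.73 and 0 in flower, 0 and 0 in fruit, 0 and 4.45 in leaf, and 0 and 0 in root. These values were 4 reads in flower 1 and 6 in leaf 2, the libraries with the most reads of gma-miR828a, and made up 0.873% (95% exact interval 0.238 to 2.22) and 1.83% (0.676 to 3.95) of the miR828 reads. Neither minor miR828 form was called in any pair by limma, and their adjusted p for flower minus fruit were 0.645 and 0.784.

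The 2 main forms did not keep a fixed ratio. The value of ath-miR858b over that of gma-miR828a was 17.1 and 349.9 in flower, 11.3 and 16.6 in fruit, 14.6 and 7.10 in leaf, and 8.61 and 191 in root. ath-miR858b was the higher one in 8 of 8 libraries. The 2 highest ratios were in flower 2 and root 2, where gma-miR828a had 18 and 2 reads. Summed over the forms of a family, miR858 averaged 3901 ± 1079 in flower, 288 ± 29.0 in fruit, 1238 ± 524 in leaf and 1076 ± 19.4 in root, and miR828 averaged 105.6 ± 130.5 in flower, 21.7 ± 7.83 in fruit, 154 ± 126 in leaf and 69.8 ± 91.5 in root (SD, n = 2 each).

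Non-overlap between tissues was counted over the 5 forms beside the whole table. The libraries did not overlap for 1 of 5 forms between flower and fruit, against 45.8% of the 216, for 2 between flower and leaf (52.8%), 1 between flower and root (36.1%), 1 between fruit and root (31.9%) and 0 between leaf and root (41.7%). Between fruit and leaf 4 of 5 did not overlap, each lower in fruit, against 52.8% in either direction and 32.4% lower in fruit. Among these 4, ppe-miR858_R-2 and gma-MIR828b-p5 were at 0 in both fruit libraries, where their shares in leaf were mostly not detectable. In leaf 1 gma-MIR828b-p5 was 5.77, beside a value of 3 reads of 4.19 in fruit 1. The forms of a family share most of their sequence and are not independent. Outside flower against fruit, limma called 0 of the 5 forms in every pair, where it called 2.31% of the 216 between flower and leaf, 2.78% between flower and root, 3.7% between fruit and leaf, 2.78% between fruit and root and 8.33% between leaf and root. At an unadjusted p under 0.05 in limma there was 1 form, ath-miR858b, between flower and leaf (21.3% of the 216), flower and root (16.2%), fruit and leaf (19%) and fruit and root (15.7%), and there were 0 between leaf and root (21.8%).

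Related families were set beside them for flower against fruit. Among miR159 and miR319, which act on GAMYB and TCP factors, limma called 0 of 11 sequences tested, with 3 at an unadjusted p under 0.05 and a median log2 difference, flower minus fruit, of 0.74. Those 3 went both ways, at -4.42 and -2.41 for miR319 sequences and 2.10 for a miR159 sequence. Among miR156 and miR157, which act on SPL factors that restrain anthocyanin synthesis in Arabidopsis, it called 0 of 9, with 0 at an unadjusted p under 0.05 and a median of 0.18. Among families that start secondary small RNAs as miR828 does, miR390, miR393, miR482 and miR2118, it called 1 of 21, which was higher in flower. In that list 5 had an unadjusted p under 0.05 and the median was 0.10. The called sequence, ptc-miR390a_R+1, was 4.75 and 4.44 in flower and listed at 0 in both fruit libraries (adjusted p = 0.0462, limma), whose values of 3 reads were 4.19 and 2.77. It was also at 0 in leaf and root, so it passed the filter on low values through the flower libraries alone, and its call is no support for the list. Among the copper families miR397, miR398 and miR408, of which miR397 acts on laccases of lignin synthesis, it called 0 of 6, with 1 at an unadjusted p under 0.05 and a median of -0.91. Over all 216 the median was 0.39, with 35 at an unadjusted p under 0.05, or 16.2%.

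The profile most like that of ath-miR858b over the 8 libraries was that of sbi-miR169e, whose family acts on NF-YA factors. Pearson's r of log2(value + 1) was 0.951, as a description of 8 libraries that share their depth and scaling. sbi-miR169e was 35.6 and 30.4 in flower, 0 and 0 in fruit, 10.5 and 19.5 in leaf, and 10.9 and 7.12 in root. Like ath-miR858b it was highest in both flower libraries and lowest in both fruit libraries. Its root 2 value lay under that of 3 reads, 7.62, and the values of 3 reads in fruit were 4.19 and 2.77. Next were mtr-miR5213-5p_R-1_1ss2AG, with r of 0.882, and gma-miR394a-5p_L+1, with r of 0.836. The miR5213 sequence had 3267 and 7796 in flower, against 78.9 and 148 in fruit. It was one of the 5 sequences called between these tissues (adjusted p = 0.0462, limma). Unlike for ath-miR858b, its flower libraries were not both above all others, since root 1 held 4893. Root 2 held only 999, and the leaf libraries held 2353 and 1699. gma-miR394a-5p_L+1 was 38.9 and 134.8 in flower and 0 and 0 in fruit and was not called (adjusted p = 0.158, limma). Its values in leaf 2 (41.6) and root 1 (51.2) exceeded that of flower 1. Leaf 1 stood lower, at 17.8, and root 2 was at 0 like fruit.

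For gma-miR828a the most like profiles were PC-5p-39162_114, a miRNA the authors predicted, with r of 0.828, ata-miR169a-5p_R-1, with 0.790, and zma-miR156a-3p_1ss22TG, with 0.686. In zma-miR156a-3p_1ss22TG flower 1 and root 1 were also above their partner libraries, at 225 and 30.4 in flower and 849 and 43.2 in root, while in leaf the order was the other one, 1446 and 324.

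**Figure D5:**
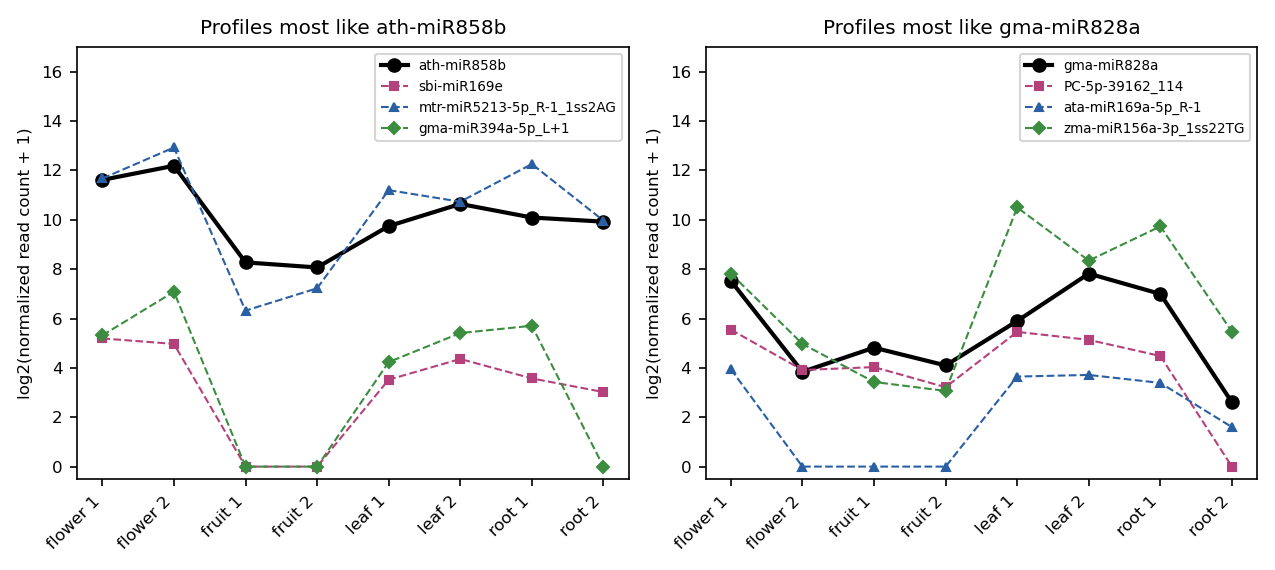
The x axis gives the 8 libraries and the y axis log2(normalized read count + 1), for ath-miR858b (left, black) and gma-miR828a (right, black) with the 3 sequences of highest Pearson's r; lines join the libraries for the eye only. On the left all 4 sequences dip in the fruit libraries, and on the right the black line drops in flower 2 and root 2.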

How the data were processed

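Libraries were made with a TruSeq kit and run on a HiSeq 2500, and ACGT101-miR cleaned the reads of adapter dimers, low-complexity reads, common RNA families and repeats, per the labels' protocols. The legend deposited with the table says that mapping was to miRBase hairpins of selected species. The authors deposited normalized counts, here taken as a signal without known formula; program versions and genome build were not given in the sources used here. Low values were whole multiples of the step of a library (within 0.01) in 67.6% to 76.2% of cases, and multiples of 0.5 steps in 91.7% to 98.4%, so read counts could not be restored for the table and count models were left aside.

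The filter asked for 1 or more in 2 or more libraries, which 216 of 270 sequences and all 5 forms passed. Their log2(value + 1) was fitted by limma 3.58.1 (R 4.3.3) over the 8 libraries by tissue, with a mean-variance trend and 4 residual degrees of freedom, and called at an adjusted p under 0.05. The script was tested on simulated data with raised values and a fixed spread, a check of the code and not of its error rates here. Differences on this scale understate changes of low values. Beyond the label nothing says that replicates came from separate plants, so p-values measure the spread between these libraries. The members, lists and rules were chosen with earlier results of these data known. Named were every form, called members of the related lists, and the 3 sequences with the highest r for each main form.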

Additional observations from a re-analysis of the deposited data

How the results depend on the processing

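The number of sequences called by limma between flower and fruit, 5 as reported, was 6 with a pseudocount of 0.5, 5 with every entry tested by itself, 8 with library weights, 2 without the trend, 1 with no filter, a minimum value of 10, quantile normalization, rescaling to the same total or rescaling to the total without ath-miR159a (chosen after seeing the data), and 0 with a pseudocount of 10, a fit of flower and fruit alone or the replicate block. Leaving out 1 library gave 0 to 18, the highest without root 1, with 17 without root 2. Between 19 and 47 had an unadjusted p under 0.05.

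The log2 difference of ath-miR858b, flower minus fruit, kept its sign throughout, which many of the settings could not change. It was not called at 3.69 with a pseudocount of 10, at 3.73 with no filter, a minimum value of 10, no trend, a fit of both tissues alone or the replicate block, at 3.38 with quantile normalization, at 2.81 rescaled and at 3.09 rescaled without ath-miR159a, nor in 6 of 8 fits without 1 library, which gave 3.44 to 4.02. The cause was not tested. The median of all sequences was 0.39 as reported, -0.06 rescaled and 0 rescaled without ath-miR159a. With the replicate block the adjusted p of ath-miR858b was 0.138 (limma). The labels give nothing beyond the number that links same-numbered libraries, and whether they share plants or handling was not tested. The deviations of same-numbered libraries correlated between -0.197 and 0.238.

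For gma-miR828a, leaving out 1 library gave -0.62 to 3.07 for flower minus fruit, -3.02 to 0.67 for flower minus leaf, -1.31 to 3.08 for flower minus root, -2.54 to 1.85 for fruit minus root and -0.14 to 4.25 for leaf minus root, and fruit minus root was 0.17 rescaled without ath-miR159a. For ath-miR858b, leaf minus root was -0.048 rescaled and -0.26 to 0.63 without 1 library. For mdm-miR828a_1ss19TA, flower minus fruit was -0.046 with quantile normalization. Fruit minus leaf of ath-miR858b was called with library weights (adjusted p = 0.0310, limma). gma-miR828a had 2 to 19.5 reads in 4 libraries. In root 2, with the fewest implied reads, 73898, its 2 reads limit what the value shows. Flower 2, where it had 18 reads, had the most implied reads, 724509, but ath-miR159a held 57.7% of that library. The value of 1 read was 0.432 in flower 1 and 0.741 in flower 2. As the formula of the normalization is not given, these values do not settle which of these libraries was sequenced deeper. More sequences were above 0 in flower 1, 189 against 173.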

Other observations

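Outside the families, 1 of the other sequences of the table carried the seed TCGTTGT of ath-miR858b. This was gma-miR6300_R+5, noticed after the data were seen, whose 23 nt differ from those of ath-miR858b by an edit distance of 11.
gma-miR6300_R+5: gTCGTTGTagtatagtggtaagt
Its values were 18850.1 and 3059 in flower, 2734 and 6240 in fruit, 10308 and 7257 in leaf, and 8454 and 28999 in root. Unlike those of ath-miR858b, its flower and fruit libraries overlapped. The match is one of letters only.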
